A study of Mus musculus with 12 samples.

Results

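The chromosome 13 tRNA cluster is the array of tRNA genes that flanks the major replication-dependent histone genes of the mouse. Its members were taken by position: every stretch of continuous coverage on chromosome 13 with a start between 21 and 24 Mb (mm9), leaving out 1 narrow length class that held 0 stretches here. 99 of the 532 stretches met this rule, each a tRNA gene or short group of genes with 150 bp of flank on either side. Chromatin came from livers of male C57/BL6 mice of 12 to 14 weeks, with no mutation or drug named in the labels. The mice were kept for 2 weeks under 12 h of light and 12 h of dark and then for 7 days with food only in the dark hours. The submitters took 5 mice at ZT 2 h, the clock time after the lamps came on, and another 5 at ZT 26 h as the biological replicate. The labels give neither the time of each replicate number nor whether livers were pooled, so p-values measure only the spread between libraries. Livers were perfused and fixed with 1% formaldehyde.

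12 ChIP-seq libraries form 6 groups of 2. RPC1, the largest subunit of RNA polymerase III (Pol III), and RPC4, another Pol III subunit, report Pol III. RPB2, the second largest subunit of RNA polymerase II, reports Pol II. 2 pairs are titled H3K4 and H3K36, and input is chromatin without immunoprecipitation. The antibody fields of both histone pairs contradict their titles: H3K4-titled libraries list an H3K36me3 antibody and H3K36-titled libraries an H3K4me3 antibody. The titles are used here, and which mark each pair holds is not settled by the labels.

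Pol III reaches a tRNA gene through elements inside the gene. TFIIIC binds the A and B boxes, TFIIIB is then placed upstream of the start, and Pol III transcribes to a short run of T after the gene. Because the promoter is internal, identical gene copies carry identical A and B boxes and differ in what surrounds them. Large tRNA arrays in mammalian genomes lie near histone genes, and trimethylated H3K4 marks active promoters of Pol II genes and the surroundings of many active tRNA genes.

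All 99 members held at least 1 predicted tRNA gene, and the 105 predicted genes had 36 anticodons covering 17 amino acids plus 1 gene whose anticodon, TTA, pairs with a stop codon. 94 members held a single gene, 4 held 2 and 1 held 3. The genes had 76 distinct sequences, and 47 of the 105 genes had an identical copy in the cluster. Gene sequences were read from the mm9 genome (NCBIM37). The 6 identical copies of tRNA-Met (CAT), whose sequence is that of the initiator tRNA, are shown because they span nearly the whole range of Pol III coverage. Each line gives 40 bases upstream and 20 bases downstream in lower case and the 72 bp gene in capitals, along the gene's strand, and copies are named by genome position with flanks.
tRNA-Met (CAT) at chr13:21802823-21802954, plus strand: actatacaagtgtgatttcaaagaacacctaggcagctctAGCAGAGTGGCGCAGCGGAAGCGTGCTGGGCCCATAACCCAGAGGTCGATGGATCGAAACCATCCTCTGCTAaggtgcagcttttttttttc
tRNA-Met (CAT) at chr13:22066861-22066992, plus strand: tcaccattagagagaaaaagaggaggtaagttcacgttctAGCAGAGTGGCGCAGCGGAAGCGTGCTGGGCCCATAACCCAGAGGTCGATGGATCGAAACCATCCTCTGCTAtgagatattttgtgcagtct
tRNA-Met (CAT) at chr13:23609521-23609652, plus strand: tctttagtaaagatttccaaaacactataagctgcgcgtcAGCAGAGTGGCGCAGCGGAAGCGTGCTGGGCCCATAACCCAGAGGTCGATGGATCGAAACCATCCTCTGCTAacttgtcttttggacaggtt
tRNA-Met (CAT) at chr13:23622197-23622328, minus strand: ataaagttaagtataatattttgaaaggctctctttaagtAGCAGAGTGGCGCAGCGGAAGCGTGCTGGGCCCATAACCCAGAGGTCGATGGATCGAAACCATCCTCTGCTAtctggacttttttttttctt
tRNA-Met (CAT) at chr13:23591909-23592040, plus strand: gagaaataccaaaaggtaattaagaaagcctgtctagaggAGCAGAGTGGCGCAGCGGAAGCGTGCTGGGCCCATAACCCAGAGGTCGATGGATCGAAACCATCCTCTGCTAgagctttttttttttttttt
tRNA-Met (CAT) at chr13:22023018-22023149, minus strand: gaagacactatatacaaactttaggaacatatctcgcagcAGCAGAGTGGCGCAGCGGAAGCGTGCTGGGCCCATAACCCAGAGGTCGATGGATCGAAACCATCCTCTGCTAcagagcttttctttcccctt

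Other genes on which the results turn are shown as the gene alone, 5′ to 3′, with the anticodon in capitals. The first 3 are sequences with 3 or more identical copies or with a wide range between 2 copies, the next 2 are among the strongest Pol III genes, and the last 2 are the weakest.
tRNA-Ser (AGA), 4 copies, highest at chr13:22011084-22011165: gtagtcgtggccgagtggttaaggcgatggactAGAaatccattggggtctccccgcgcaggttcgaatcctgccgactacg
tRNA-Asp (GTC), 3 copies, highest at chr13:22032188-22032259: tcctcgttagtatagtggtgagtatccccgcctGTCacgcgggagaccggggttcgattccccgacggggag
tRNA-Arg (ACG), 2 copies, highest at chr13:23538661-23538733: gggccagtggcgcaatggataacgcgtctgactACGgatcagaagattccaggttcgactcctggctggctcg
tRNA-Leu (CAA) at chr13:21292073-21292177: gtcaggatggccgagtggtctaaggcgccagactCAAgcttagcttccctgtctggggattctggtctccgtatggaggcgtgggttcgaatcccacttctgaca
tRNA-Leu (CAG) at chr13:23545301-23545383: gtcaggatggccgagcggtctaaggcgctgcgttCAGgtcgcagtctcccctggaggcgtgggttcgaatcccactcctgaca
tRNA-Tyr (GTA) at chr13:23520607-23520695: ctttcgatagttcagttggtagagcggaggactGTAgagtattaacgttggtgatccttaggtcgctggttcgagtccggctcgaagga
Predicted gene with anticodon TTA at chr13:21887668-21887750: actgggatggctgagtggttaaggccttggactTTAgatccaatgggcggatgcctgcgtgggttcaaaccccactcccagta

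The B box pattern GTTCNANNC, searched along the gene, was present in 93 of the 105 genes. The 12 genes without this exact pattern were 7 initiator-type tRNA-Met (CAT) genes and 5 tRNA-Ala (AGC) genes, and the Pol III coverage of their stretches ran from 0.903 to 182. These genes read GATC where the pattern has GTTC, so a missed pattern does not mean that the element is absent. On both strands of the whole stretch the same motif was found in 91.9% of the 99 members and in 77.4% of the 433 stretches elsewhere. A run of TTTT began within 50 bases after the gene for 99 of 105 genes, a median of 8 bases after it. Of the 6 genes without such a run, 5 lay in stretches with 1.69 to 6.71 reads per base of Pol III and tRNA-Ser (CGA) at chr13:22114138-22114519 in one with 65.7. Among all 99 members 31 carried under 5. The tRNA-Ala (AGC) genes at chr13:23390930-23391002 and chr13:23504810-23504882 share their stretches with a tRNA-Val (AAC) gene that has such a run. Exact copies of the first that have the run lay in stretches with 4.92 and 3.46, below its 6.71. A link between the run and Pol III was not tested.

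The cluster falls into 2 sub-blocks. The first, with 58 members, spans chr13:21252504-22142786, and the second, with 41 members, spans chr13:23362140-23622438. The 1219350 bp between them held 36 vomeronasal receptor (Vmn1r) genes and 0 histone (Hist1) genes in the GENCODE vM1 annotation. Of 53 Hist1 genes between 21 and 24 Mb, 24 lay before the end of the first sub-block and 29 after the last member, with 0 inside the second sub-block. 19 members lay within 20000 bp of a Hist1 gene start, 60 lay within 100000 bp, and the farthest, at the Trim27 side of the first sub-block, lay 555137 bp away. The label "at histone genes" therefore describes part of the members by position. 15 members overlapped an annotated gene and 4 of them an annotated exon. The tRNA-Ile (TAT) gene at chr13:21988657-21989050 coincides with the annotated microRNA Mir1983.

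Values below are coverage, the number of reads over each base averaged over the stretch, as deposited and without scaling for depth. The 99 members held 11907 to 27053 reads of 76 bp in the 4 Pol III libraries, 1298 and 2008 in the H3K4-titled libraries, 982 and 811 in RPB2, 451 and 512 in input, and only 99.9 and 104 in the H3K36-titled libraries. Replicates ranked the members alike in RPC1 (Spearman's rho 0.986 over 99 members) and RPC4 (0.988), less so in H3K4-titled (0.847) and RPB2 (0.667), and poorly in input (0.284) and H3K36-titled (0.208). For tests, each library was divided by its own background, the trimmed mean of the 25% of stretches outside the cluster with the lowest Pol III coverage, and limma compared log2(scaled coverage + 0.5) with input over all 532 stretches. All adjusted p-values are from that fit (Benjamini-Hochberg).

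Pol III coverage varied 462-fold within the cluster, from 0.395 to 182 reads per base as the mean of 4 libraries, with a median of 22.94. 34 members carried 50 or more, 34 carried 5 to 50, and 31 carried under 5. Outside the cluster 126 of 433 stretches carried 50 or more and the median was 13.4, so both strong and weak genes were common there too. 79 members were above input (limma, adjusted p under 0.05) beside 67.1% of all 532 stretches, and 0 were below input beside 0% of all stretches, also at an unadjusted p under 0.05. The background came from the stretches with the lowest Pol III, so this scaling left little room for members below input. The median log2 difference over input was 4.31 over members and 3.45 over all stretches. Scaling by file totals instead, which measures a share of each file, placed 32 members above input beside 28.4% of all stretches and 38 below beside 55.3%. The call of many members, not only of those under 5 reads per base, is thus tied to the scaling. The order of members within a library is not.

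**Figure D1:**
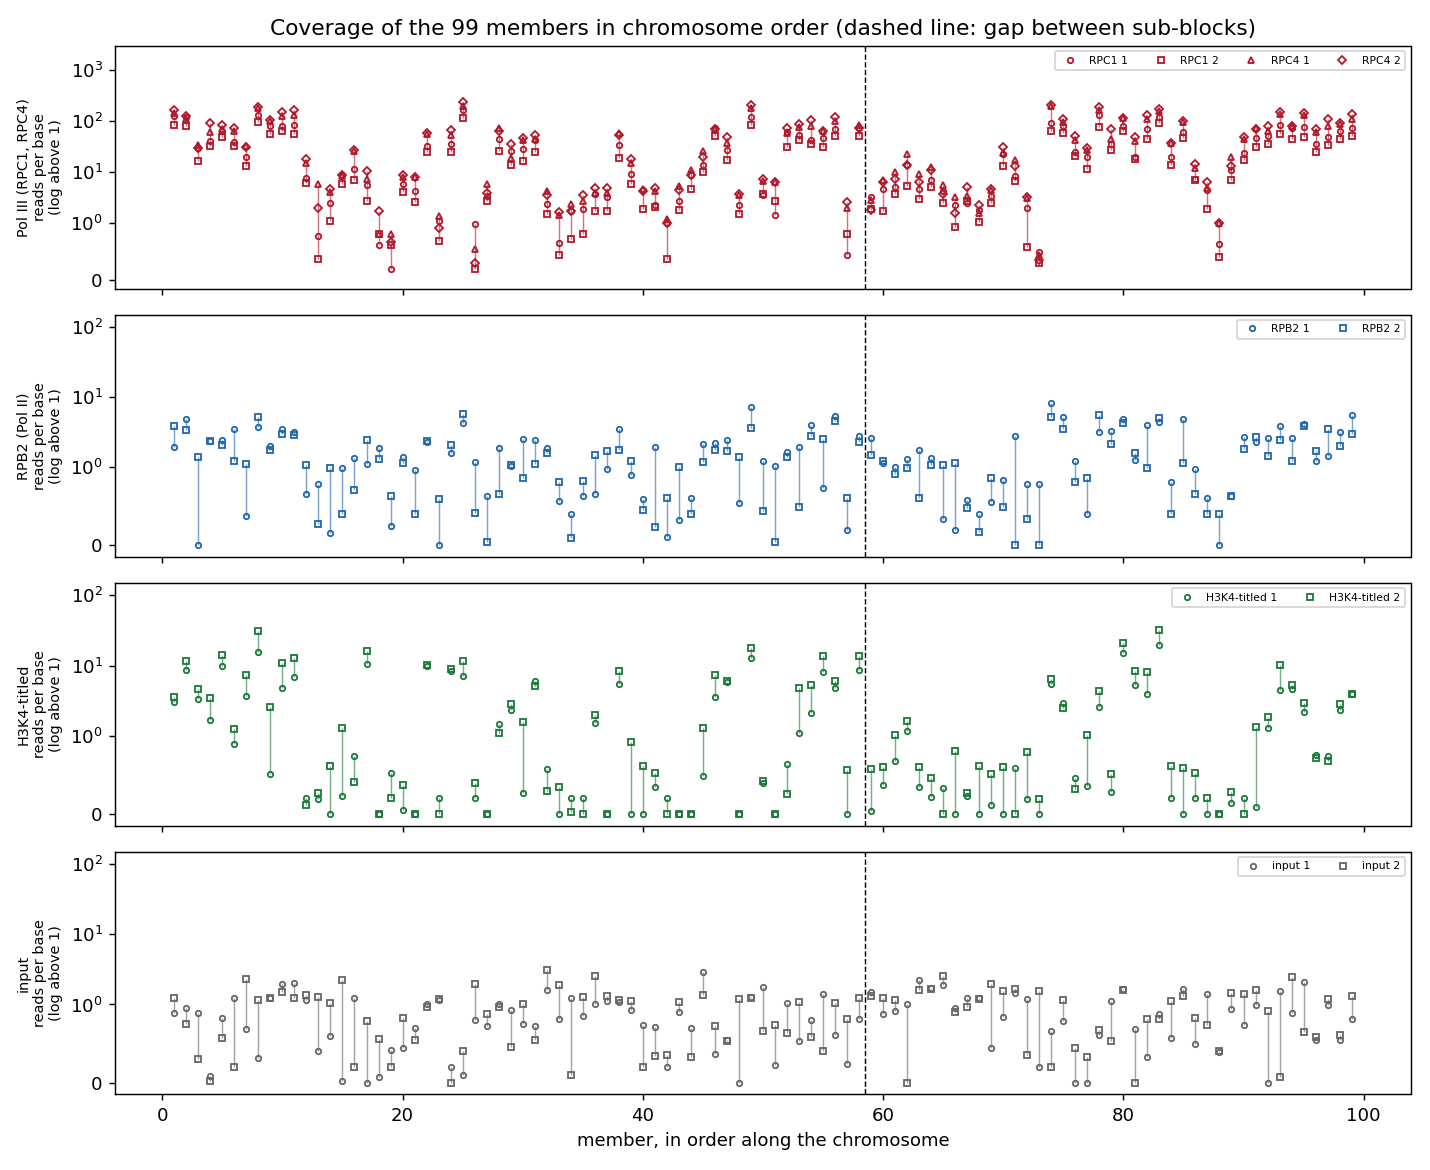
Coverage in reads per base (log axis above 1) of the 99 members in their order along the chromosome, with 1 symbol per library, for Pol III, RPB2, H3K4-titled and input; the dashed line marks the gap between the sub-blocks. Pol III runs from 0.395 to 182 as a mean of 4 libraries and alternates between strong and weak runs, while input does not follow it.

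The strongest member was the initiator tRNA-Met (CAT) at chr13:21802713-21803084, 4928 bp from the start of Hist1h2bl. It carried 165 and 117 reads per base in RPC1, 203 and 244 in RPC4, and 0.102 and 0.409 in input. It exceeded input by 8.39 on the log2 scale (SE 0.28, adjusted p = 1.3e-10), although both input libraries together held only 2.50 reads there, so the size of that difference depends on the pseudocount. The next was tRNA-Leu (CAA) at chr13:21291923-21292327, an intron-containing gene, with 132 and 97.8 in RPC1, 183 and 191 in RPC4, and 0.309 and 1.16 in input. The second initiator tRNA-Met (CAT), at chr13:22066751-22067122, carried 119 and 85.9 in RPC1 and 184 and 212 in RPC4. In all 3 genes every Pol III library lay far above both input libraries.

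In the second sub-block the strongest member was tRNA-Ile (AAT) at chr13:23529828-23530201, with 135 and 78.4 in RPC1 and 169 and 194 in RPC4 (log2 difference 7.32, SE 0.38, adjusted p = 5.0e-10). tRNA-Ala (AGC) at chr13:23523131-23523503 followed, with 91.0 and 63.5 in RPC1 and 200.4 and 206 in RPC4. tRNA-Leu (CAG) at chr13:23545151-23545533 carried 120 and 91.0 in RPC1 and 158 and 174 in RPC4. The list of the 8 strongest is closed by a pair of adjacent genes at the outer edge of the first sub-block, nearest to Olfr1368 and Trim27. They are tRNA-Glu (CTC) at chr13:21252504-21252875, with a mean of 132, and tRNA-Phe (GAA) at chr13:21253124-21253496, with a mean of 110. The nearest histone gene start is 555137 bp from the first and 554516 bp from the second.

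At the other end, tRNA-Tyr (GTA) at chr13:23520457-23520845, within the annotated transcript C230035I16Rik, carried 0.488 and 0.301 in RPC1, 0.434 and 0.355 in RPC4, and 0.195 and 1.55 in input. The predicted gene with anticodon TTA at chr13:21887518-21887900 carried a mean of 0.51, tRNA-Thr (TGT) at chr13:21367675-21368048 a mean of 0.573, tRNA-Arg (ACG) at chr13:23592241-23592613 a mean of 0.763, and an initiator tRNA-Met (CAT) at chr13:22022888-22023259 a mean of 0.903. None of these 5 passed the test against input (limma, adjusted p from 0.19 to 0.79). At the tRNA-Tyr gene the Pol III libraries lay within the range of the 2 input libraries. Over all 20 members not above input, the means ran from 0.395 to 4.00. The weakest member held 8.08 Pol III reads over 4 libraries, so at this depth Pol III there was not detectable above input.

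Genes for the same amino acid spread widely. Among the 10 single-gene tRNA-Met members coverage ran from 0.903 to 182, among the 8 tRNA-Ile members from 2.04 to 144, and among the 8 tRNA-Arg members from 0.763 to 86.3. tRNA-Ser, with 12 members, had 11 above input and a highest value of only 70.9. Both tRNA-Gly, both tRNA-Glu, both tRNA-Phe and both tRNA-Trp members were above input, while tRNA-Met had 7 of 10, tRNA-Ile 5 of 8 and tRNA-Thr 4 of 7. Over the cluster 79 of 99 members were above input, beside 67.1% of all 532 stretches. Counts per amino acid are small and are a description only.

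Copies of many, but not all, gene sequences differed widely in Pol III. 18 sequences had 2 or more identical copies. The highest copy exceeded the lowest over 10-fold for 7 of the 18 sequences and over 3-fold for 10, with a median ratio of 5.23. The 6 initiator tRNA-Met (CAT) copies printed above carried 182, 150.2, 109, 93.9, 4.46 and 0.903 reads per base in the order of the lines, so 4 were strong and 2 weak. In the weakest copy the libraries read 1.02 and 0.363 for RPC1 and 1.23 and 1.00 for RPC4, and in the copy with 4.46 they read 4.58 and 1.93 for RPC1 and 4.90 and 6.41 for RPC4. No library of the 2 weak copies reached the lowest library of the 4 strong ones, which was 52.1. The ratio of strongest to weakest copy was 202. The stretch of the copy with 4.46 ends 70 bp from the stretch of tRNA-Arg (ACG), near Btn2a2. The weakest copy lies 13722 bp from the start of Zfp184, a zinc finger gene.

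The same held for other sequences printed above. The 4 tRNA-Ser (AGA) copies carried 41.6, 33.2, 12.9 and 3.39. The lowest of them, at chr13:22019576-22019957, has no TTTT within 50 bases after the gene, while the other 3 do. The 3 tRNA-Asp (GTC) copies all lie within the first sub-block and carried 66.5, 8.33 and 2.26. tRNA-Arg (ACG) had copies at 32.1 and 0.763, a 42.0-fold difference, and tRNA-Ser (TGA) had copies at 70.3 and 3.91. At the other extreme, the 3 copies of another tRNA-Ala (AGC) sequence, each in a stretch shared with a tRNA-Val (AAC) gene, carried 6.71, 4.92 and 3.46, so the highest was 1.94 times the lowest. 2 tRNA-Ala (AGC) copies near Trim27 carried 109 and 106, and 2 tRNA-Ser (GCT) copies in different sub-blocks carried 70.9 and 69.0.

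**Figure D2:**
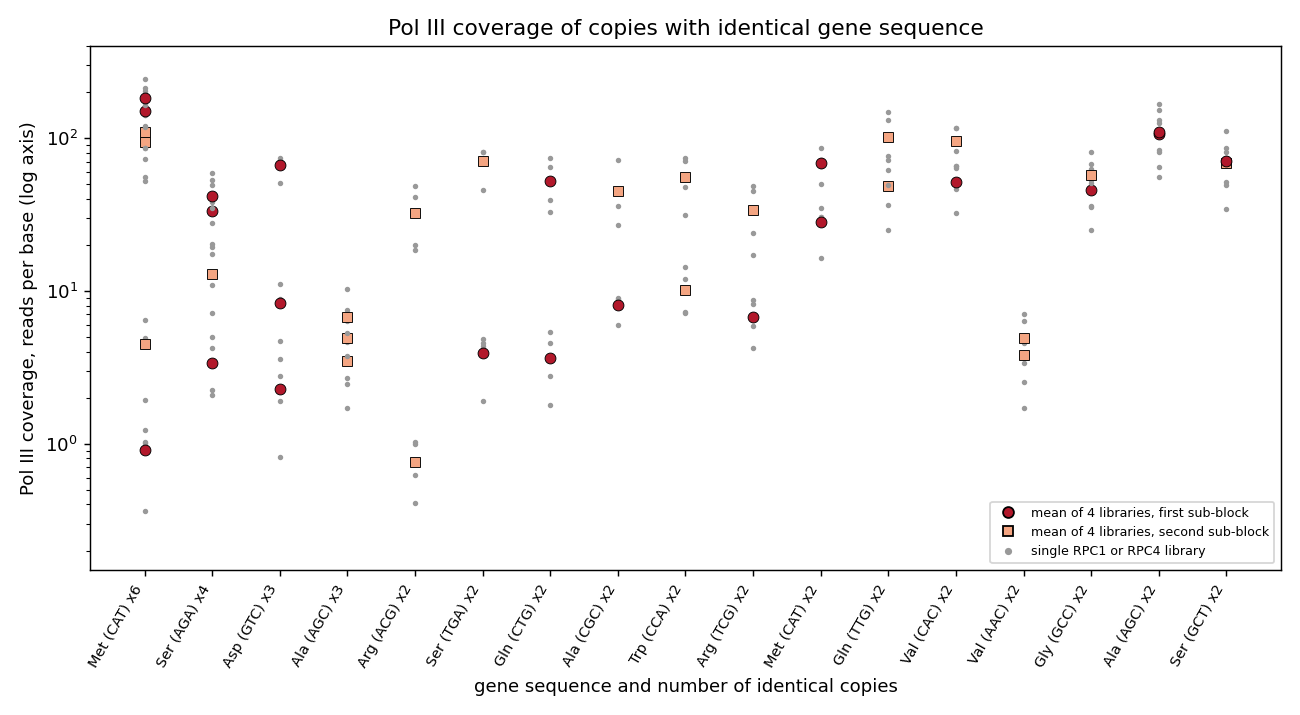
Pol III coverage (log axis, reads per base) of each copy of 17 of the 18 gene sequences with identical copies, as the mean of 4 libraries (filled symbols) with the single libraries as grey points. Initiator tRNA-Met (CAT) spans 0.903 to 182, tRNA-Arg (ACG) 0.763 to 32.1, and tRNA-Ser (GCT) 69.0 to 70.9.

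Reads of identical genes can be assigned to a wrong copy, so the sequence around the copies was examined. Of the 99 members, 73 shared no run of 76 bases, the read length, with any other stretch, and the largest share of such runs that any member had in common with another was 10.03%. Reads divided among places leave fractional coverage. In the Pol III libraries it covered under 1% of bases in 67 of the 99 members and at most 35.8%. tRNA-Gly (GCC) at chr13:21802299-21802669 shared no such run, yet 15.2% of its bases had fractional coverage. For 17 of the 18 sequences the outer 75 bases of the flanks ranked the highest and lowest copies in the same order as the whole stretch. For tRNA-Met (CAT) the 50 bases before the strongest and the weakest copy matched at 11 positions. Flank GC content was much the same in weak and strong members, with medians of 37.7% for members under 5 reads per base and 37.8% for those with 50 or more, over 300 bases of flank.

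Single base differences also separated genes of unequal coverage, with positions counted from 1 at the 5′ end of the gene. The initiator-type gene at chr13:21998830-21999201 differs from the strongest copy by G51A and carried 1.07. The tRNA-Arg (ACG) pair at 32.1 and 0.763 differs from the strongest tRNA-Arg (ACG), which carried 65.4, by the same T50C. tRNA-Phe (GAA) at chr13:21974604-21974976 differs by G57A from the copy with 110 and carried 41.8. Since exact copies spread as widely, these differences are a description only.

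Neighbouring members were compared over the 98 adjacent pairs, of which 25 were under 1000 bp apart. Gaps were measured between stretch ends. The genes themselves lie farther apart, by the 150 bp of flank of each stretch. Pol III coverage of the lower and higher member of a pair differed by a median ratio of 2.10 under 1000 bp, 2.29 from 1000 to 5000 bp and 3.36 beyond 5000 bp, beside 5.16 over all 4851 pairs of members. A ratio over 10 was seen in 2 of 25, 4 of 39 and 10 of 34 pairs of these 3 gap classes, and in 1772 of the 4851 pairs. Across pairs under 1000 bp apart the coverage of the left and right member correlated at rho 0.53 for Pol III and 0.57 for H3K4-titled (25 pairs, a description, since both members of a pair are read in the same libraries and some members enter 2 pairs). From 1000 to 5000 bp the values were 0.55 and 0.15 (39 pairs), and beyond 5000 bp 0.22 and 0.01 (34 pairs). RPB2 gave 0.25, 0.39 and 0.07 in the 3 classes. Pairs within 2-fold for Pol III made up 36%, 46.2% and 32.4% of the classes, beside 25.2% of all pairs of members. With a wider gap the median ratio and the share of pairs over 10-fold thus rose, and the H3K4-titled rho fell. The share within 2-fold and the rho of Pol III and RPB2 did not fall steadily.

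**Figure D3:**
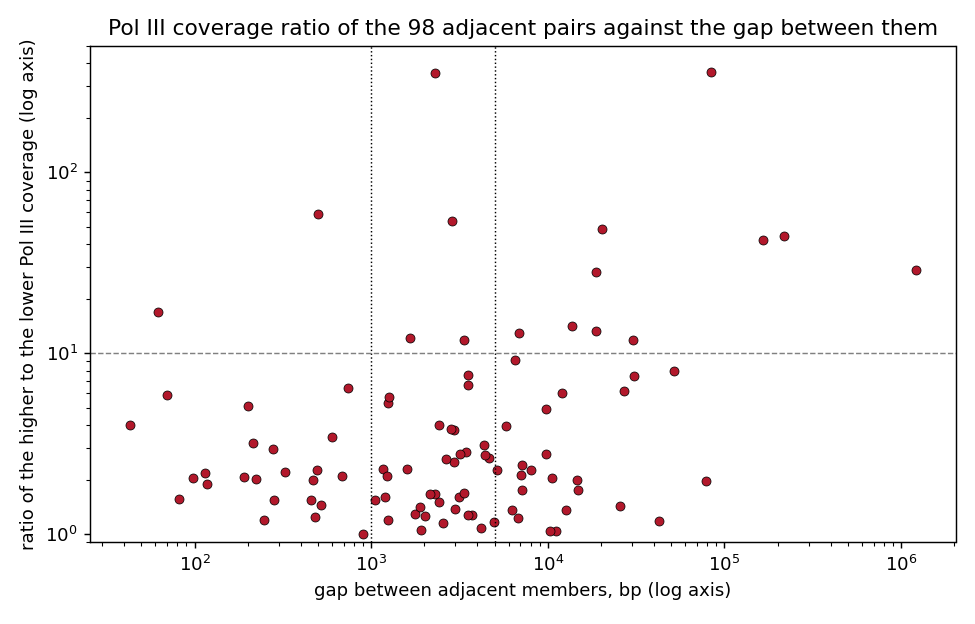
Ratio of the higher to the lower Pol III coverage of the 98 adjacent pairs (log axis) against the gap between them in bp (log axis), with dotted lines at 1000 and 5000 bp and a dashed line at a ratio of 10. A ratio over 10 occurs in 2 of 25 pairs under 1000 bp and in 10 of 34 pairs beyond 5000 bp.

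The largest contrast among close pairs was tRNA-Ile (AAT) at chr13:22120942-22121315, with 70.6 and 50.6 in RPC1 and 102 and 119 in RPC4, beside tRNA-Thr (AGT) at chr13:22121819-22122192. The stretch of the tRNA-Thr gene, 503 bp from that of tRNA-Ile, carried 0.444 and 0.807 in RPC1 and 2.03 and 2.57 in RPC4. Its mean was 58.6-fold lower, with no overlap between the libraries. H3K4-titled coverage was 4.74 and 6.01 at the first and 0 and 0.561 at the second. Both lie in the annotated transcript Gm11292, near Hist1h2ah.

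Near Btn2a2 3 genes follow each other closely: tRNA-Met (CAT), the initiator copy with 4.46, then tRNA-Arg (ACG) with 0.763, then tRNA-Ser (AGA) with 12.9. The gap between stretches is 70 bp on one side of tRNA-Arg and 62 bp on the other. Its own gene body held 1.77 reads per base, above the 0.28 and 0.085 of its outer 50 bases. The stretch of tRNA-Gly (GCC) with 45.4 lies 43 bp from that of the strongest tRNA-Met (CAT). The outer 50 bases of the tRNA-Gly stretch carried 21.1 on the side of tRNA-Met and 8.48 on the far side. In all, 5 members had a neighbour under 1000 bp away that was over 4-fold higher, and the tRNA-Arg (ACG) gene with 0.763 had such a neighbour on both sides. In each of the 5 the gene body exceeded both outer edges. In 3 of the 4 with 1 such neighbour the facing edge exceeded the far edge. The exception was tRNA-Pro (AGG), with 2.31 on the facing edge and 6.85 on the far edge. Its stretch lies 743 bp from that of the strongest tRNA-Ile (AAT).

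A row of tRNA-Tyr (GTA) genes near Abt1 shows a steep series of neighbours. Along the chromosome their means were 22.94, 11.5, 2.26 and 0.395, the last 2 not above input. The next member, 2285 bp on, is tRNA-Ala (AGC) with 140, followed by a further tRNA-Tyr (GTA) with 87.0. Thus the weakest gene of the cluster sits between genes of the same anticodon and beside the fifth strongest member.

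Sorted into the 3 classes of Pol III coverage, the members formed 49 runs along the chromosome, of which 23 were single members. The longest runs held 5 members in the class of 50 or more and 6 in the class under 5. By the test against input, the longest runs above input held 14 consecutive members each, one at chr13:22025680-22121315 with coverage from 2.81 to 150.2, and one at chr13:23523131-23592170 with coverage from 4.46 to 144. With background scaling 79 of the 99 members were above input beside 67.1% of all 532 stretches, so long runs of called members are a description only. File totals placed only 32 members above input, beside 28.4% of all stretches. The longest run not above input held 6 members at chr13:21988657-22009266, between 27715 and 47931 bp from the start of Zfp184: tRNA-Ile (TAT), an initiator-type tRNA-Met (CAT), tRNA-Lys (TTT), tRNA-Asp (GTC), tRNA-Leu (CAA) and tRNA-Arg (TCT), with 1.07 to 3.61. It ends 1667 bp before the stretch of tRNA-Ser (AGA) with 41.6. At the Hist1h4h end of the second sub-block, 5 consecutive members at chr13:23598238-23611140 carried 55.8 to 109.

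By distance, the 19 members within 20000 bp of a histone gene start had a median Pol III coverage of 65.7, and 14 of them carried 50 or more. The 41 members at 20000 to 100000 bp had a median of 23.8 (11 with 50 or more), and the 39 farther ones 6.74 (9 with 50 or more). Across all 99 members rho between Pol III and this distance was -0.15, and 9 strong members lay in the farthest class. H3K4-titled coverage had medians of 2.95, 0.437 and 0.476 in the same 3 distance classes. Members of 1 class are close neighbours, so these medians rest on few separate places.

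The sub-blocks were compared within each library, block 1 being the members before the gap and block 2 those after it. Median coverage of block 1 and block 2 members was 12.8 and 20.4 in the first RPC1 library, 8.56 and 14.0 in the second, 22.4 and 37.4 in the first RPC4 library, and 23.5 and 38.2 in the second. H3K4-titled coverage went the other way, with 0.61 in block 1 and 0.355 in block 2 in the first library and 1.27 and 0.685 in the second. RPB2 medians were 1.40 and 1.34 in one library and 1.20 and 1.17 in the other.

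On the log2 scale the block 1 minus block 2 difference, taken relative to that of input, was -0.57 for Pol III (exact permutation over libraries, two-sided, p = 0.0667, the smallest that 4 libraries against 2 can give). It was 0.92 for H3K4-titled, 0.17 for RPB2 and -0.45 for H3K36-titled (exact permutation p = 0.3333 for each, the smallest that 2 against 2 can give). All 4 Pol III libraries lay below both input libraries and both H3K4-titled libraries above them, but this design cannot pass 0.05. With file totals the differences were smaller, -0.27 for Pol III and 0.31 for H3K4-titled, and over gene bodies alone those of RPB2 and H3K36-titled changed sign (-0.21 and 0.19). Pol III classes were similar in both blocks, with 19 of 58 and 15 of 41 members at 50 or more. Among those strong members the median Pol III coverage was 70.9 in block 1 and 90.7 in block 2, while H3K4-titled coverage was 5.53 and 3.48.

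The members on either side of the gap differ sharply. tRNA-Ser (GCT) at chr13:22142405-22142786, the last of block 1 and 7322 bp from Hist1h2bj, carried 73.4 and 51.2 in RPC1 and 85.4 and 73.5 in RPC4, with 8.61 and 13.8 in H3K4-titled. tRNA-Ile (TAT) at chr13:23362140-23362535, the first of block 2 on the vomeronasal receptor side, carried 3.25 and 1.94 in RPC1 and 2.84 and 1.84 in RPC4, and was not above input (adjusted p = 0.29). The first 7 members of block 2 all lay between 2.47 and 14.0.

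RPB2 coverage was low but followed Pol III. 34 members were above input for RPB2 beside 38.7% of all stretches, and 0 were below by limma, also at an unadjusted p under 0.05. With file totals 3 were above beside 10.2% of all stretches, and 41 below beside 46.8%. The median log2 difference was 0.76 over members and 0.86 over all stretches. RPB2 was above input at 24 of the 34 members with Pol III of 50 or more, 9 of the 34 intermediate ones and 1 of the 31 weakest. Median RPB2 coverage in these classes was 3.35 and 2.76 (strong), 1.23 and 1.07, then 0.597 and 0.613 (weak), beside input medians of 0.883 and 0.944 in strong and 0.817 and 1.09 in weak members. Across members rho was 0.85 between Pol III and RPB2 and -0.00224 between Pol III and input (99 members, a description).

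The largest RPB2 differences belonged to tRNA-Ala (AGC) at chr13:23523131-23523503, with 8.12 and 5.22 in RPB2 beside 0.66 and 0.204 in input (log2 difference 3.47, SE 0.41, adjusted p = 1.9e-05). The strongest initiator tRNA-Met (CAT) followed with 4.28 and 5.72 in RPB2 (log2 difference 3.45, SE 0.33, adjusted p = 2.7e-06). tRNA-Lys (TTT) at chr13:21259794-21260166 carried 2.36 and 2.34 in RPB2, with 0.0804 and 0.0214 in input, and tRNA-Leu (CAA) at chr13:21291923-21292327 carried 3.81 and 5.13. Input at tRNA-Lys amounted to 0.5 reads over both libraries, so its difference depends on the pseudocount. The source of RPB2 coverage at these genes was not tested.

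H3K4-titled coverage marked most strong members. 60 members were above input beside 62.0% of all stretches with the background scaling. 37 were above with coverage as deposited beside 36.3%, and with file totals 14 were above beside 15.0% and 50 below beside 59.4%. These shares were near the background in each scaling. The median log2 difference over input, after background scaling, was 2.51 over members and 3.02 over all stretches. As deposited, median coverage over members was 0.694 in H3K4-titled and 0.854 in input, so this difference rests on the scaling. The background divided out was 0.0569 and 0.103 in the H3K4-titled libraries and 0.775 and 0.922 in input. Within the cluster the signal went with Pol III: 32 of the 34 strong members, 23 of the 34 intermediate ones and 5 of the 31 weak ones were above input with the background scaling. With coverage as deposited these counts were 26, 11 and 0. Median coverage was 3.76 and 5.35 in strong, 0.427 and 0.823 in intermediate and 0.0328 and 0.269 in weak members, and rho with Pol III was 0.77 across 99 members.

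tRNA-Leu (CAG) at chr13:23545151-23545533 had the highest H3K4-titled coverage, 19.4 and 32.4, beside 0.881 and 0.809 in input (log2 difference 7.77, SE 0.36, adjusted p = 4.5e-10). tRNA-Leu (CAA) at chr13:21291923-21292327 carried 15.6 and 31.3 (log2 difference 7.85, SE 0.49, adjusted p = 3.9e-09). tRNA-Gly (GCC), next to the strongest tRNA-Met (CAT), carried 8.28 and 9.02 beside 0.205 and 0 in input, which amounted to 1.00 reads, so its log2 difference of 7.52 depends on the pseudocount. The other of the 4 largest differences, 7.71, was at tRNA-Thr (CGT) at chr13:21356299-21356672, with 10.5 and 16.4, where Pol III was only 5.69 and 2.80 in RPC1 and 7.55 and 10.6 in RPC4. That gene thus had H3K4-titled coverage at the level of the strongest members and a mean Pol III coverage of 6.65, in the class of 5 to 50.

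The reverse case also occurred. 4 members with Pol III of 50 or more had mean H3K4-titled coverage under 1, named here after their values were seen: tRNA-Val (AAC) at chr13:22107510-22107882, tRNA-Tyr (GTA) at chr13:23558795-23559184, tRNA-Trp (CCA) at chr13:23598238-23598609 and tRNA-Ser (GCT) at chr13:23613589-23613970. tRNA-Tyr (GTA), 1025 bp from the start of Btn1a1, carried 76.1 reads per base of Pol III with 0 and 0.585 in H3K4-titled. The tRNA-Ser (GCT) copies make the contrast plainest. With the same gene sequence and Pol III of 70.9 and 69.0, the copy near Hist1h2bj had 8.61 and 13.8 in H3K4-titled and the copy near Hist1h4h had 0.741 and 0.685. In 15 of the 18 sequences with identical copies the copy with the highest Pol III had more H3K4-titled coverage than the lowest copy, and in 17 of 18 it had more RPB2. These counts include copies of tRNA-Ala (AGC), tRNA-Val (AAC) and tRNA-Met (CAT) that share a stretch with other genes, so their values are those of the stretch. They also include sequences whose copies were nearly equal in Pol III, the smallest ratio being 1.03.

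**Figure D4:**
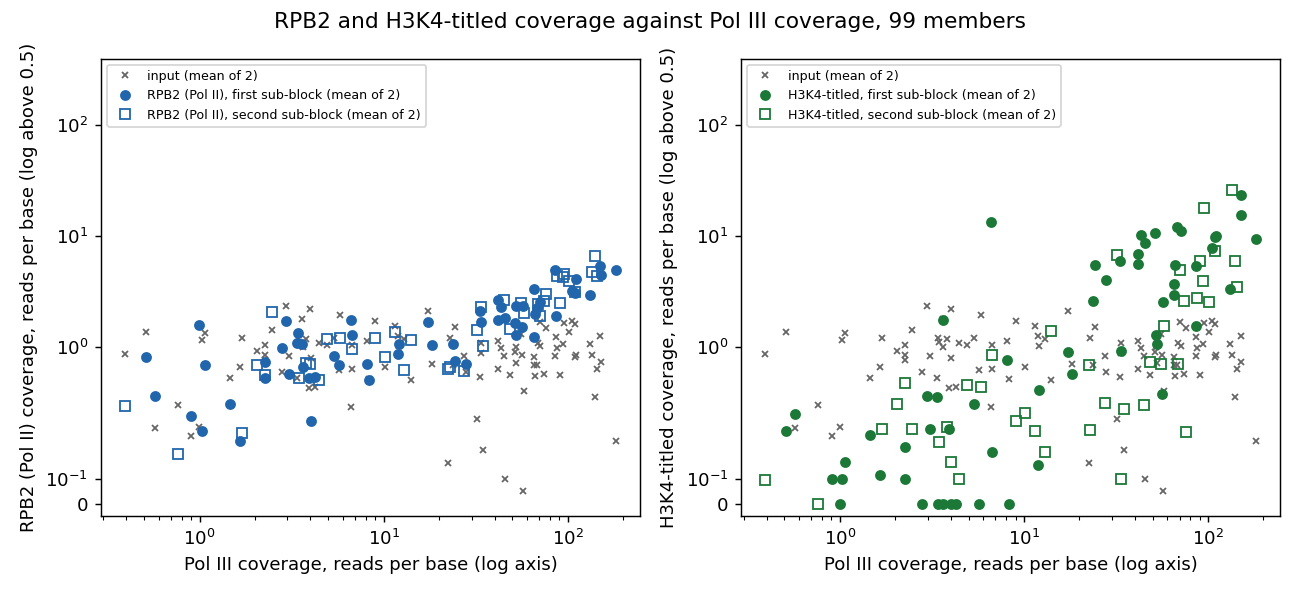
RPB2 (left) and H3K4-titled (right) coverage against Pol III coverage in reads per base for the 99 members (log axes, linear below 0.5 on the vertical axis), each a mean over libraries, with input as crosses and the sub-blocks as filled and open symbols. RPB2 reaches 6.67 at the strongest genes; tRNA-Thr (CGT) stands out at right with 13.4 of H3K4-titled and 6.65 of Pol III.

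H3K36-titled coverage gave little to read. Both libraries together held 204 reads over the 99 members, and 23 members had 0 in both. 3 members were above input beside 2.44% of all stretches and 11 below beside 6.58%, and with coverage as deposited 2 were above beside 2.26% and 63 below beside 61.5%. The 3 were tRNA-Lys (TTT) at chr13:21259794-21260166 with 0.611 and 0.204, tRNA-Gln (TTG) at chr13:21360188-21360559 with 1.67 and 0.613, and tRNA-Arg (TCG) at chr13:21371415-21371787 with 1.58 and 1.54. Input was 0.0804 and 0.0214 at tRNA-Lys, 0.0672 and 0.556 at tRNA-Gln, and 0.445 and 0.826 at tRNA-Arg. The call at tRNA-Lys thus rests on a nearly empty input. With a pseudocount of 1, 2 members were above input, and without the first input library 1 member was. At this depth a pattern of the mark along the cluster was not detectable. Its rho with Pol III was -0.06 across 99 members.

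The shape of coverage along the gene differed between libraries over the 33 single-gene members with Pol III of 50 or more, read in the direction of transcription. RPC1 had more coverage in the 150 bp before the gene than in the 150 bp after it, with ratios of 1.55 and 1.64. RPC4 had less before than after, with ratios of 0.851 and 0.624. RPB2 was highest over the gene, with 5.22 and 4.73 reads per base there beside 3.11 and 2.48 before and 3.19 and 2.35 after. H3K4-titled coverage was lowest over the gene, 2.50 and 4.65, and rose to 8.03 and 13.8 in the outer 75 bases before it and 6.69 and 9.76 in the outer 75 bases after it. Input stayed between 0.716 and 1.23 in all parts. The stretches end 150 bp from the gene, so a peak of H3K4-titled coverage farther out would not be seen.

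**Figure D5:**
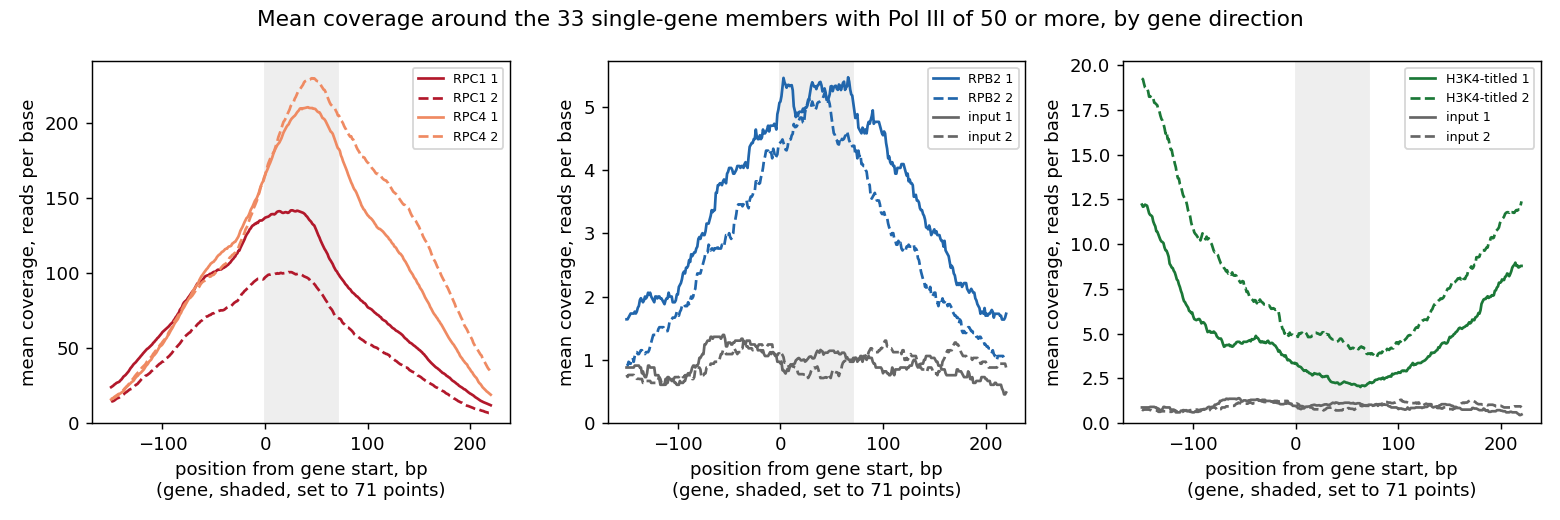
Mean coverage in reads per base from 150 bp before to 150 bp after the gene, with genes set to one length (shaded), over 33 single-gene members with Pol III of 50 or more; each line is a library. RPC1 and RPC4 peak over the gene with RPC4 reaching farther after it, RPB2 peaks over the gene at 5.22 and 4.73 on average, and H3K4-titled dips there.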

How the data were processed

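Coverage (signal) at each base of 532 stretches is what the authors deposited. No scaling for depth was found in the values: a lone read adds 1 over 76 bp, and fractions occur where reads were divided among places. The genome is mm9 per the submitters' processing notes, while aligner and read filter stand as not given in the sources used here. Abutting lines were joined into stretches. A stretch on the X chromosome with unequal ends between files was left out. File starts fit 1-based positions with exclusive ends, so printed ends are 1 lower.

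tRNA genes were predicted from the NCBIM37 sequence by a cloverleaf search (at least 17 of 21 stem pairs), and neighbours came from GENCODE vM1. Groups came from the titles. Each library was scaled by its 10% trimmed mean over 108 stretches, which assumes these are unenriched in every library. Values were tested as log2(scaled coverage + 0.5) with limma 3.58.1 in R 4.3.3 (mean-variance trend, all 12 libraries, 6 groups, two-sided, Benjamini-Hochberg over 532 stretches, threshold 0.05). The fit was tested on simulated data. The pseudocount shrinks differences of low members, and 6 members held 3 or fewer input reads over both libraries. Sub-blocks were compared by exact permutation over libraries. Descriptions used Python 3.11.15.

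Members and lists were chosen with earlier results of these data known. The genes named are the 8 strongest and 5 weakest for Pol III, the 6 most unequal pairs under 1000 bp apart, the 4 largest differences for RPB2 and H3K4-titled, the extreme copies of sequences with 3 or more copies (1 left out, as said at the end), the members beside the gap and the longest runs; others are named as neighbours or after their values were seen. Alternatives were other scalings, pseudocounts, filters, gene bodies alone, merged neighbours, a replicate block and each library left out. No other batch is labelled, and PCR duplicates could not be counted. 1 gene sequence and the comparison of its copies are not reported here.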

Additional observations from a re-analysis of the deposited data

How the results depend on the processing

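Scaled by file totals, and by the median of ratios, the members above input numbered 32 and 47 for Pol III (79 as reported), 3 and 3 for RPB2 (34), 14 and 24 for H3K4-titled (60) and 5 and 5 for H3K36-titled (3). Of all 532 stretches, file totals placed 28.4% above input for Pol III, 10.2% for RPB2 and 15.0% for H3K4-titled. With the median of ratios 21 members were below input for Pol III, 8 for RPB2 and 29 for H3K4-titled. With coverage as deposited 37 were above for H3K4-titled, beside 36.3% of all stretches. Shares over all stretches are not given for the other alternatives of this section. Their counts show how far the calls move, not whether members differ from other stretches. The H3K36-titled count was also 5 with the background set on the lowest 50% of stretches, 1 over gene bodies alone, 1 in a fit of only its libraries and input, and 1 without the first input library. Leaving out 1 library at a time gave 72 to 78 members for Pol III, 23 to 29 for RPB2, 54 to 67 for H3K4-titled and 1 to 4 for H3K36-titled. The sub-block difference kept its sign in all 11 alternatives for Pol III and all 9 for H3K4-titled, but with file totals it shrank to -0.27 and 0.31. Over gene bodies alone it became -0.21 for RPB2 and 0.19 for H3K36-titled, and the cause was not tested. Leaving out 1 library gave -0.62 to -0.53 for Pol III, 0.87 to 0.98 for H3K4-titled, 0.13 to 0.22 for RPB2 and -0.83 to -0.06 for H3K36-titled. Replicate deviations correlated at -0.102 to 0.134 over 15 pairs of groups, so no pairing of libraries by replicate number was seen. In libraries this sparse a pairing could go unseen, and the labels leave it open. The replicate block left 79 members above input for Pol III, 34 for RPB2 and 59 for H3K4-titled. Depth limits H3K36-titled throughout, and RPB2 and input at weak members.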

Other observations

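H3K36-titled coverage was sparse. In the first sub-block 4 consecutive members near Gpx5, the gene of an epididymal glutathione peroxidase, each held coverage in both libraries. tRNA-Thr (CGT) had 0.61 and 0.532, tRNA-Gln (TTG) 1.67 and 0.613, tRNA-Thr (TGT) 0.73 and 1.37, and tRNA-Arg (TCG) 1.58 and 1.54, while the median member had 0.0542 and 0.0914. These 4 were picked after their values were seen, and no test was made of them as a group.

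Genes a few bases apart covered the same span as exact copies. tRNA-Gln (TTG) at chr13:21360188-21360559 differs from the copy with 101 by C3T, G45A and C49T and carried 0.997. tRNA-Ser (GCT) at chr13:21584564-21584945, which lies 165755 bp and 217353 bp from the members before and after it, differs from the copy with 70.9 by C3T, G58A and G79A and carried 1.03. tRNA-Thr (AGT) at chr13:21947740-21948113 differs from the copy with 90.7 by G58A and carried 23.8. Positions are counted from 1 at the 5′ end of the gene.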
